A study of Mus musculus with 4 samples.

Results

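The response of Brg1 knockout cortical neurons to KCl depolarization was read from 2 RNA-seq libraries, 1 of cultures left at basal KCl and 1 of cultures given 50 mM KCl for 6 h. Every gene that reached 1 FPKM (a fragment count divided by transcript length and by library size) in at least 1 of the 4 libraries of the study was taken, which gave 13248 of the 22552 genes in the deposited table. The gene nearest above that floor peaked at 1.00011 FPKM and the gene nearest below it at 0.999645 FPKM. For each gene the log2 ratio of KCl over basal was taken after 1 FPKM was added to both values, and "2-fold" below means a log2 ratio of at least 1 or at most -1 on that scale. There was 1 library in each group, so no spread between cultures is known, no test was possible, and "higher" and "lower" describe these libraries alone.

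The labels give the knockout genotype as Brg1-cko (BAF53bCre Brg1F/F), that is, floxed Brg1 alleles recombined by Cre under the control of BAF53b, a gene of postmitotic neurons; glial, vascular and immune cells of the same cultures lie outside that driver. The comparison cultures are labelled wild type, and whether they carried Cre or floxed alleles is not given in the sources used here. Cells of both genotypes were dissociated from the cortex of E16.5 embryos and grown on coated wells. For depolarization, TTX (1 µM), a sodium channel blocker, and APV (100 µM), an NMDA receptor blocker, were added on day 5 in vitro to silence spontaneous activity, and KCl followed on day 6. The protocol does not say whether the basal cultures received the blockers, nor how many embryos went into a culture.

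Raising extracellular potassium depolarizes neurons directly and opens voltage-gated calcium channels, chiefly the L type. Calcium entry activates calmodulin-dependent kinases, calcineurin and the MAPK cascade, and these act on transcription factors that are already present, CREB, SRF with its ternary complex partners, and MEF2. Immediate early genes such as Fos, Egr1 and Npas4 are switched on first, without new protein synthesis, and their products then drive late genes that encode secreted factors, enzymes and synaptic proteins. BRG1, encoded by Smarca4, is an ATPase of the BAF chromatin remodelling complex, which moves nucleosomes at promoters and enhancers and has been linked to this programme.

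The 2 knockout libraries were estimated at 21800000 (basal) and 23500000 (KCl) fragments and the 2 wild-type libraries at 21300000 each, so that 1 FPKM on a transcript of 2 kb stood for about 42.6 to 47.1 fragments. Smarca4, the deleted gene, stood at 10.5 FPKM in the knockout basal and 10.4 FPKM in the knockout KCl library, against 34.0 and 28.5 FPKM in wild type. The sex of the embryos followed the genotype: Xist, the X inactivation transcript, was at 0.141 and 0.287 FPKM in the knockout and 83.3 and 78.1 FPKM in wild type, while the Y-linked Eif2s3y was at 32.9 and 39.0 FPKM in the knockout and at most 0.0518 FPKM in wild type. Genotype and sex therefore cannot be told apart wherever the 2 genotypes are set side by side below. The neuronal transcripts Stmn2 (976 and 1069 FPKM) and Tubb3 (1175 and 284 FPKM) were among the highest in the 2 knockout libraries, but so was the glial transcript Apoe (1723 and 2646 FPKM), so the cultures held glia as well as neurons. Gapdh and Ppia stayed below 1 FPKM in all 4 libraries although every cell uses them, so low values of genes with near-identical copies elsewhere in the genome are uncertain.

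With KCl, 584 of the 13248 genes (4.41%) were at least 2-fold higher in the knockout and 410 (3.09%) at least 2-fold lower, 994 (7.5%) in all. The distribution was narrow around 0, with a median log2 ratio of 0.01, a central range of -0.30 to 0.30 from the lower to the upper quartile, and 9442 genes (71.3%) within 0.5 of 0. The tail of higher genes was the longer one. At least 4-fold higher were 102 genes (0.77%), whereas 24 (0.181%) were at least 4-fold lower. Small RNAs, whose short transcripts make FPKM unstable, held 48 of the higher and 44 of the lower genes although there were 218 of them among the genes retained. Small RNAs, 1068 unnamed genes (clone, gene model and pseudogene symbols) and genes that mark sex were then set aside. The 11957 named genes that remained are described from here on. Of these 514 (4.3%) were at least 2-fold higher and 332 (2.78%) at least 2-fold lower, with 89 (0.744%) and 11 (0.092%) past 4-fold.

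The higher genes started low and the lower genes were seldom abundant ones. Summed over the 514 higher genes, the level went from 4798 FPKM in the basal to 16223 FPKM in the KCl library, that is, from 1.59% to 4.91% of all FPKM. Summed over the 332 lower genes it went from 6721 to 2340 FPKM, from 2.23% to 0.708%. When genes were divided into 5 groups of equal number by their mean level in the 2 knockout libraries, the share at least 2-fold lower was 3.51%, 5.02%, 2.63%, 1.55% and 1.17% from the lowest to the highest group. The share at least 2-fold higher varied less, at 5.77%, 4.68%, 3.72%, 3.43% and 3.89%. These shares come from the same 2 libraries that defined the calls, and the 1 FPKM added to each value pulls the ratios of low genes towards 0.

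**Figure D1:**
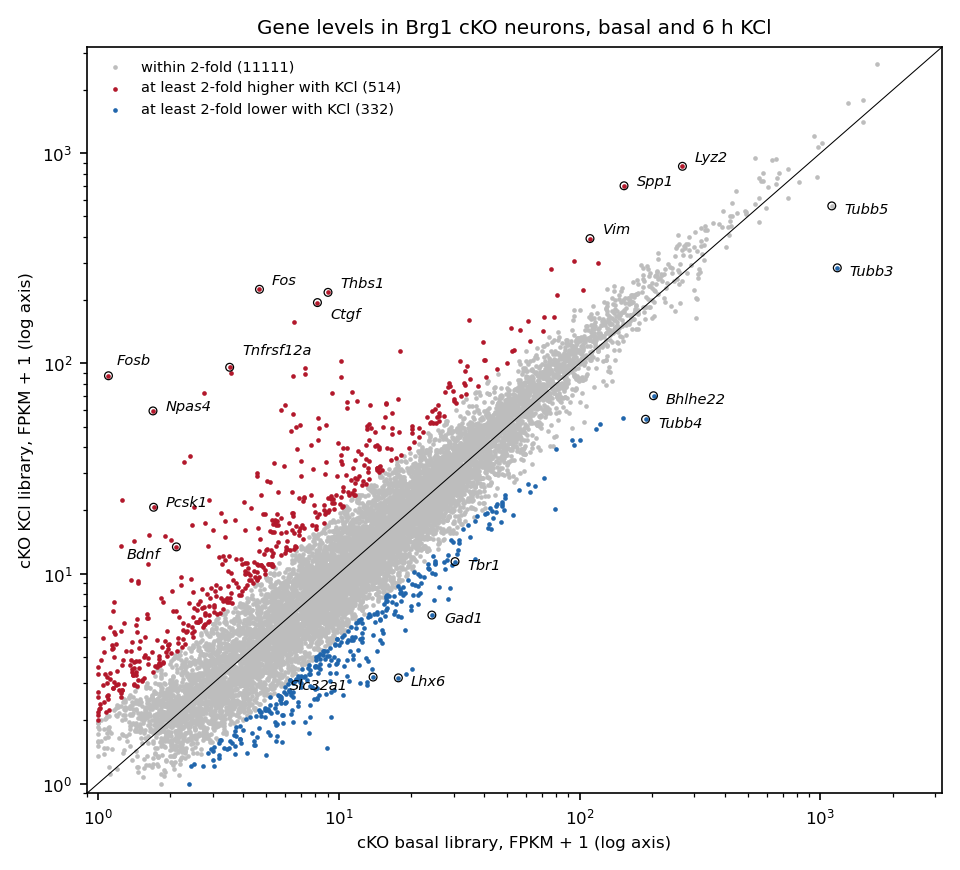
Level of each of 11957 named genes in the knockout basal library (x axis) and the knockout KCl library (y axis), both as FPKM + 1 on log axes, with 1 library per axis; red points are the 514 genes at least 2-fold higher, blue points the 332 at least 2-fold lower, grey points the 11111 in between, and the line marks equal levels. Fosb and Fos lie farthest above the line, and the abundant neuronal tubulin Tubb3 lies far below it.

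How the 2 libraries are scaled against each other sets the balance between higher and lower genes, since the columns summed to 302041 FPKM (basal) and 330552 FPKM (KCl). With equal column sums the median over all genes was -0.10 and the counts were 470 higher and 567 lower, which is 45.3% higher among the calls against 58.8% as deposited. Scaling on the cytosolic ribosomal protein genes moved the median to -0.40 (295 higher, 1335 lower, 18.1% higher), and scaling on presynaptic genes moved it to 0.25 (963 higher, 225 lower, 81.1% higher). Equal upper quartiles gave 50.9% higher. For that reason each gene list below is described by how many of its measured members lie above the median of all genes as well as by its calls. Of the 52 lists, 51 kept their side of that median under the deposited scale and all 5 rescalings. Each rescaling divides a whole library by a constant and so shifts all its ratios nearly alike. That agreement was therefore largely fixed in advance and lends the lists no support.

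Genes at least 4-fold higher were looked up in the RefSeq promoter table (build GRCm38.p6), which gives windows from 250 bases before to 50 after each annotated start; 67 of the 89 genes matched, with 95 windows. The serum response element, or CArG box, which binds SRF, was present on either strand in 8 of the 95 windows (8.42%), in 3.62% of windows of genes 2- to 4-fold higher, in 1.21% of those within 2-fold, in 0.310% of those at least 2-fold lower and in 1.63% of all 32851 promoters of the table. The 8 windows belonged to 5 genes, Cnn2, Filip1l, Dusp5, Tcf7 and Egr2, of which Egr2 supplied 4 windows, 3 of them overlapping and sharing 1 site. A full cAMP response element, TGACGTCA, which binds CREB, was present in 7 of the 95 windows (7.37%), in Maff, Pcsk1, Ppp1r15a, Dusp1, Mcam, Zdbf2 and Epha2, against 3.62%, 2.98% and 2.17% in the other 3 classes and 1.79% of all promoters. The AP-1 site TGANTCA was in 7.37% of the windows of the 4-fold class, 10.6% of the 2- to 4-fold class, 4.63% within 2-fold, 4.02% of the lower class and 7.81% of all promoters. The MEF2 site was in none of the 95 windows of the 4-fold class and in 1.45% of windows of the 2- to 4-fold class. It was in 0.364% within 2-fold, 0.619% of the lower class and 0.557% of all promoters. TGACGTCA and TGANTCA cannot match at the same position, and neither fits within a CArG box. A match describes letters in the window, not a bound site, and windows of the same gene are not independent.

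The stretches below, from 190 to 47 bases before an annotated start, 5′ to 3′ on the gene's strand, show the motifs of 5 of these genes because they carry the 2 elements that the calcium pathway is known to act on. Capitals mark the cAMP response element in Pcsk1 (chr13:75089667-75089810, plus strand) and Dusp1 (chr17:26508519-26508662, minus strand), and the serum response element in Cnn2 (chr10:79988410-79988553, plus strand), Dusp5 (chr19:53528955-53529098, plus strand, with 2 boxes end to end) and Egr2 (chr10:67537679-67537822, plus strand). Coordinates are those of GRCm38.p6, while the expression table was made on mm9.
Pcsk1: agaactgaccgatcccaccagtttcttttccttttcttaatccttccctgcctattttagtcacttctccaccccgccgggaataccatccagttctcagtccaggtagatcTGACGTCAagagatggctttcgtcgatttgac
Dusp1: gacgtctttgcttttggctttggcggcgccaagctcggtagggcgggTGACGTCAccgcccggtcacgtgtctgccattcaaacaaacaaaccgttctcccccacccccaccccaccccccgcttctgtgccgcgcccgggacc
Cnn2: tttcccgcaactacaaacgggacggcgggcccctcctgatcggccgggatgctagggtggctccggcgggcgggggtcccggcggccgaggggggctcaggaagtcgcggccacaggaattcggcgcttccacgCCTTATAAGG
Dusp5: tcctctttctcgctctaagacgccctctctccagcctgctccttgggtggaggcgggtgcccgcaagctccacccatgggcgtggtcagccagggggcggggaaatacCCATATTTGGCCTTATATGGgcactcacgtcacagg
Egr2: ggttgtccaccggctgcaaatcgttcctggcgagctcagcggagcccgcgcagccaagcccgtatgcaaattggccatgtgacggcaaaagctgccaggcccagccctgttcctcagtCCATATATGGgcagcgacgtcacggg

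The AP-1 family, whose Fos and Jun proteins bind DNA as dimers, held the largest responses of all. Of 12 measured members 8 were at least 2-fold higher, none was 2-fold lower, and 10 lay above the median of all genes; the median of the list was 2.05. Fosb stood at 0.107 FPKM in the basal and 86.3 FPKM in the KCl library, a ratio of 809-fold (417 to 1732). Such folds divide the FPKM values with nothing added, and the range after each is its 95% counting interval on the approximated fragments, which covers counting error only. Fos stood at 3.69 FPKM in the basal and 224 FPKM in the KCl library, a ratio of 60.8-fold (52.2 to 71.0). Both were low before KCl and high with it. Junb, the Jun protein that dampens c-Jun activity, stood at 5.46 FPKM in the basal and 85.9 FPKM in the KCl library (15.7-fold, 13.7 to 18.1), and Fosl2 at 3.58 and 29.1 FPKM. The small Maf protein Maff, which lacks an activation domain, stood at 1.42 FPKM in the basal and 35.2 FPKM in the KCl library (24.8-fold, 19.1 to 32.4). Jun itself, already at 39.1 FPKM before KCl, was at 64.2 FPKM with it (log2 ratio 0.70, short of 2-fold), and Jund was at 54.5 and 43.9 FPKM. Jun and Jund, the members named here with the highest basal levels, were within 2-fold.

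Among the Egr zinc finger factors, the Nr4a orphan nuclear receptors and the Nab corepressors that bind Egr proteins, 8 of 9 were at least 2-fold higher, all 9 lay above the median of all genes, and the list median was 2.06. The 3 Nr4a receptors led the list. Nr4a1 stood at 2.58 FPKM in the basal and 88.9 FPKM in the KCl library (34.5-fold, 29.2 to 40.9), Nr4a3 at 6.27 and 94.4 FPKM (15.1-fold, 14.01 to 16.2) and Nr4a2 at 9.23 and 102 FPKM (11.04-fold, 10.2 to 11.9). Egr1, a marker of recent neuronal activity, stood at 5.68 FPKM in the basal and 48.8 FPKM in the KCl library (8.60-fold, 7.88 to 9.40). Egr2, whose promoter carries the CArG box printed above, was at 0.459 and 5.07 FPKM, and Egr4 was listed at 0 before KCl and at 2.33 FPKM with it. Egr3 was the exception at 1.46 and 2.13 FPKM (log2 ratio 0.35). The corepressors Nab1 and Nab2 were at 8.55 and 19.3 FPKM and at 4.10 and 10.1 FPKM, so factors and corepressors were both higher in the KCl library.

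Of 36 other immediate early genes, 21 were at least 2-fold higher, none was 2-fold lower and 34 lay above the median of all genes (list median 1.26). Npas4, a factor restricted to neurons and switched on by calcium entry, stood at 0.694 FPKM in the basal and 58.4 FPKM in the KCl library (84.2-fold, 65.4 to 112). Klf4 stood at 0.261 FPKM in the basal and 21.5 FPKM in the KCl library (82.2-fold, 52.1 to 144) and Csrnp1 at 1.01 and 13.4 FPKM (13.2-fold, 10.2 to 17.1). Genes of the Ier family, which encode small nuclear proteins of rapid response, moved together: Ier2 was at 7.21 and 53.9 FPKM, Ier3 at 3.59 and 28.0 FPKM, Ier5 at 14.7 and 63.3 FPKM and Ier5l at 7.86 and 50.0 FPKM. Sik1, a kinase that feeds back on the CREB coactivators, was at 6.64 and 39.98 FPKM. Crem, which yields a repressor of CREB sites, was at 5.38 and 23.4 FPKM. Id1 and Id3, inhibitors of basic helix-loop-helix factors, were at 16.6 and 66.6 FPKM and at 79.4 and 210.1 FPKM. Arc, a postsynaptic protein often used to mark active neurons, was low in both libraries, at 0.438 and 2.41 FPKM (5.50-fold, 3.72 to 8.51). Homer1, which includes an activity-induced short form that this table does not separate, was at 32.0 and 79.8 FPKM. Klf5, in contrast, hardly differed, at 7.46 and 7.97 FPKM.

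Some inhibitors of MAPK and Ras signalling, which limit the response, were also higher. In this list 9 of 22 measured members were at least 2-fold higher, none was 2-fold lower and 17 lay above the median of all genes (list median 0.77). Dusp1, a nuclear MAPK phosphatase whose promoter holds the cAMP response element printed above, stood at 9.87 FPKM in the basal and 64.4 FPKM in the KCl library (6.52-fold, 5.93 to 7.18). Dusp5, with its paired CArG boxes, was almost undetected at 0.169 FPKM and stood at 4.28 FPKM with KCl (25.3-fold, 13.3 to 56.8). Dusp4 and Dusp6 were at 3.96 and 18.2 FPKM and at 10.7 and 33.8 FPKM. Gem, a GTPase that restrains voltage-gated calcium channels, was at 3.75 and 22.7 FPKM (6.05-fold, 5.13 to 7.18). Errfi1, an inhibitor of the EGF receptor, was at 7.85 and 33.1 FPKM, and of the Sprouty genes Spry4 was at 4.31 and 14.7 FPKM and Spry1 at 5.10 and 12.04 FPKM.

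The transcription factors that receive the calcium signal differed less than the early genes above. Of 24 CREB, SRF and MEF2 family members and partners, 3 were at least 2-fold higher (Srf, Crem and Atf4), none was 2-fold lower, and the list median was 0.47. Srf stood at 12.1 FPKM in the basal and 49.2 FPKM in the KCl library (4.06-fold, 3.73 to 4.41). Creb1 was at 12.3 and 18.2 FPKM and Mef2c at 261 and 192 FPKM, both within 2-fold. Among 30 calcium sensors, calmodulin kinases and calcineurin subunits, none was 2-fold higher and 3 were 2-fold lower, namely Hpcal4 (23.3 and 9.11 FPKM), Camk1g (13.4 and 5.42 FPKM) and Rcan2 (13.4 and 5.57 FPKM). Transcripts of the L-type channel genes Cacna1c (11.96 and 10.6 FPKM) and Cacna1d (7.36 and 6.85 FPKM) were present in both libraries. Calcium entry was not measured.

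Late genes divided into those that were strongly higher and a majority within 2-fold. Of 33 secreted factors and their processing enzymes, 12 were at least 2-fold higher and 1, the interneuron peptide Sst, was 2-fold lower (44.0 and 18.5 FPKM); 23 lay above the median of all genes and the list median was 0.47. Hbegf, a ligand of EGF receptors, stood at 6.23 FPKM in the basal and 88.4 FPKM in the KCl library (14.2-fold, 12.8 to 15.8), and Pcsk1, a prohormone convertase, at 0.704 and 19.7 FPKM (28.0-fold, 22.4 to 35.8). Vgf, a granin family precursor, was at 5.92 and 49.7 FPKM. Bdnf, the neurotrophin that signals through TrkB, stood at 1.12 FPKM in the basal and 12.4 FPKM in the KCl library (11.1-fold, 9.08 to 13.7). Nrn1 was at 13.4 and 30.6 FPKM and Nptx2, a pentraxin that clusters AMPA receptors, at 1.01 and 3.20 FPKM. The granin Scg2 (25.8 and 32.3 FPKM) and the peptide precursor Adcyap1 (3.03 and 3.95 FPKM) stayed within 2-fold. Among 20 neurotrophins, growth factors and their receptors, 3 were at least 2-fold higher (Bdnf, Fgfr2 and Gfra1) and 2 were 2-fold lower, Gfra2 (4.50 and 0.897 FPKM) and Erbb4 (5.83 and 2.14 FPKM). These shares were 15% and 10%, beside 4.3% and 2.78% of all named genes.

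Late genes with intracellular or membrane products gave 15 of 33 at least 2-fold higher and none 2-fold lower, with 25 above the median of all genes (list median 0.56). Tnfrsf12a, the receptor of the cytokine TWEAK, stood at 2.53 FPKM in the basal and 94.8 FPKM in the KCl library (37.5-fold, 28.8 to 50.4), the fourth largest log2 ratio among genes that reached 5 FPKM. The growth arrest genes Gadd45b and Gadd45g, linked to active DNA demethylation, were at 1.27 and 32.9 FPKM (25.9-fold, 18.4 to 36.8) and at 4.76 and 59.2 FPKM (12.4-fold, 10.3 to 15.3). Rgs16, which shortens G protein signals, was at 1.51 and 19.8 FPKM. Ptgs2, the inducible cyclooxygenase of prostaglandin synthesis, was at 0.163 and 6.34 FPKM. The actin and scaffold proteins Baiap2 (13.1 and 39.5 FPKM) and Lmna (12.02 and 25.8 FPKM) were higher by smaller factors. Cdkn1a, the cell cycle inhibitor p21, was at 25.1 and 51.9 FPKM.

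**Figure D2:**
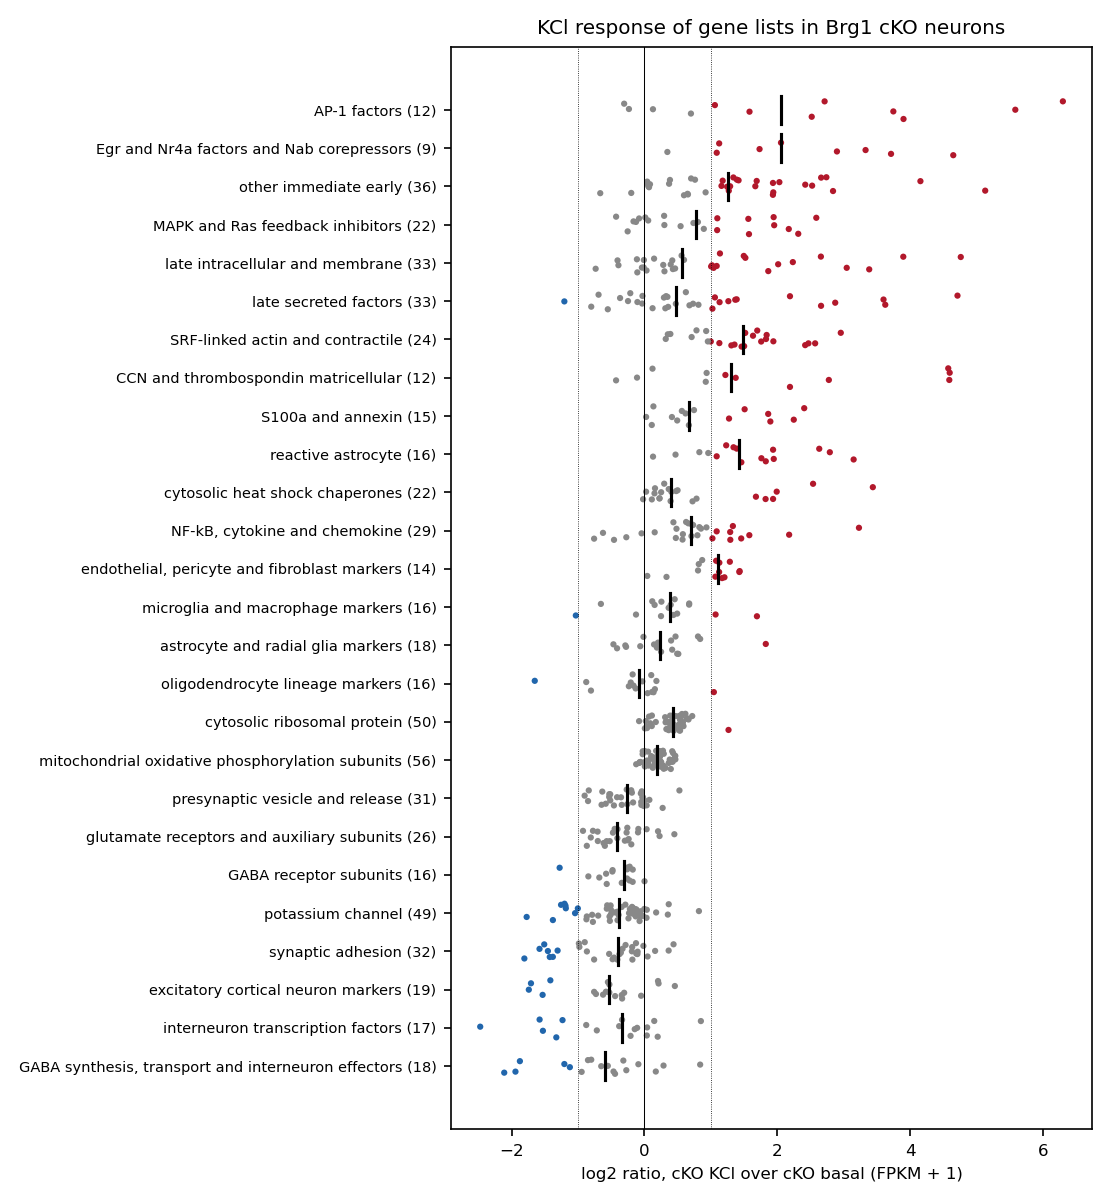
Log2 ratio of KCl over basal (FPKM + 1, x axis) in the knockout for the measured members of 26 gene lists (rows, number of members in brackets); each point is a gene measured in 1 library per condition, the thick bar is the list median, and dotted lines mark 2-fold. Immediate early lists extend to 6.30 (Fosb), and actin, matricellular and vascular lists sit to the right. Ribosomal protein genes (median 0.43) and oxidative phosphorylation genes (median 0.19) form narrow groups right of 0. Neuronal lists lean to the left down to -2.47 (Lhx6).

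A second large group of higher genes encodes the actin cytoskeleton and extracellular matrix. Of 24 actin and contractile genes that SRF and its MRTF coactivators are known to regulate, 17 were at least 2-fold higher, none was lower and all 24 lay above the median of all genes (list median 1.48). Tagln, an actin-bundling protein of smooth muscle, stood at 8.34 FPKM in the basal and 71.6 FPKM in the KCl library (8.58-fold, 7.59 to 9.70). Cnn2, an actin-binding calponin with a CArG box printed above, was at 7.26 and 48.1 FPKM (6.63-fold, 5.96 to 7.38), and Acta2, smooth muscle actin, at 10.9 and 65.1 FPKM (5.96-fold, 5.41 to 6.56). Vcl, Actn1 and Zyx, proteins of focal adhesions, were at 7.81 and 28.8 FPKM, at 12.3 and 42.3 FPKM and at 13.9 and 31.5 FPKM. Among the tropomyosins Tpm4 was at 33.0 and 96.4 FPKM and Tpm1 at 49.2 and 99.4 FPKM. Among the abundant cytoplasmic actins, Actb was at 944 and 1206 FPKM (log2 ratio 0.35), a smaller difference than in the contractile and adhesion genes.

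Matricellular proteins, secreted proteins that modulate adhesion without forming fibres, included 3 of the 10 highest ratios. Of 12 measured, 7 were at least 2-fold higher and none was 2-fold lower (lowest log2 ratio -0.43, list median 1.3). Thbs1, a thrombospondin that astrocytes are known to release and that promotes synapse formation, stood at 8.03 FPKM in the basal and 217 FPKM in the KCl library (27.0-fold, 25.4 to 28.8). The CCN proteins Ctgf and Cyr61, targets of SRF and of YAP, stood at 7.16 and 194 FPKM (27.0-fold, 24.5 to 30.02) and at 5.53 and 157 FPKM (28.4-fold, 24.96 to 32.4). Thbs2 was at 1.47 and 15.9 FPKM and Sparc at 60.2 and 158 FPKM. Spp1, osteopontin, was already abundant and stood at 152 FPKM in the basal and 699 FPKM in the KCl library (4.59-fold, 4.46 to 4.74).

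Proteases and their inhibitors gave 7 of 22 (31.8%) at least 2-fold higher, beside 4.3% of all named genes, and none 2-fold lower. Timp3, a tissue inhibitor of metalloproteinases, stood at 17 FPKM in the basal and 114 FPKM in the KCl library (6.71-fold, 6.38 to 7.06), and Timp1 was at 0.565 and 3.10 FPKM. Plaur, the urokinase receptor, was at 1.92 and 6.68 FPKM and Adamts1 at 5.06 and 14.8 FPKM. Of 15 S100 and annexin calcium-binding genes, 6 were at least 2-fold higher and all 15 lay above the median of all genes. S100a6 stood at 7.18 FPKM in the basal and 42.4 FPKM in the KCl library (5.90-fold, 4.86 to 7.18), S100a11 at 3.32 and 19.5 FPKM and Anxa2 at 12.6 and 48.4 FPKM. In the TGF-beta and BMP list 10 of 29 were at least 2-fold higher and none was 2-fold lower; these included feedback inhibitors of the pathway, Smad6 (0.463 and 8.20 FPKM), Smad7 (2.36 and 10.6 FPKM), Bambi (0.951 and 3.59 FPKM) and the secreted BMP antagonist Nog (4.93 and 31.5 FPKM). Among 25 collagen genes, a group chosen after its values were seen, 7 were at least 2-fold higher and the median was 0.67.

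Markers of vascular, pericyte and fibroblast cells moved with this group. Of 20 such markers 14 were measured, 9 were at least 2-fold higher, none was lower and all 14 lay above the median of all genes (list median 1.10), although none was 2-fold higher when the libraries were scaled on the ribosomal protein genes. Their summed level was 156 FPKM in the knockout basal and 380 FPKM in the knockout KCl library, against 63.0 and 121 FPKM in wild type. Of the endothelial markers, Pecam1, Cdh5 and Tek were below the floor and Cldn5 was listed at 0 in all 4 libraries, while Flt1, a VEGF receptor, was at 1.61 and 4.86 FPKM. Pdgfrb, a receptor of pericytes, stood at 8.40 FPKM in the basal and 20.7 FPKM in the KCl library, Col4a1 at 28.1 and 77.3 FPKM, Fn1 at 27.4 and 75.8 FPKM and Rgs5 at 13.6 and 31.0 FPKM. Their part in the higher actin, matricellular and protease genes was not tested. In RNA from whole cultures, a change in the number of cells of a type and a change in RNA per cell cannot be told apart.

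Most genes that mark reactive astrocytes were higher, whereas most astrocyte markers stayed within 2-fold. Of 16 reactive genes 12 were at least 2-fold higher and all 16 lay above the median of all genes (list median 1.43). Cd44, a hyaluronan receptor, stood at 5.47 FPKM in the basal and 56.5 FPKM in the KCl library (10.3-fold, 9.54 to 11.2), Ptx3 at 4.40 and 32.5 FPKM and Tm4sf1 at 0.607 and 10.1 FPKM. The intermediate filament Vim stood at 109.5 FPKM in the basal and 391 FPKM in the KCl library (3.57-fold, 3.48 to 3.67). Among 18 astrocyte and radial glia markers Vim was the only member past 2-fold, with Gfap at 145 and 200.5 FPKM, Slc1a3, a glutamate transporter, at 185 and 245 FPKM and Aqp4, a water channel, at 47.6 and 55.1 FPKM. The summed level of the 18 markers was 2392 FPKM basal and 3251 FPKM with KCl in the knockout, and 2110 and 3114 FPKM in wild type, with none at 0; the part of this in the reactive genes was not tested.

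Microglia and macrophage markers gave 2 of 16 (12.5%) at least 2-fold higher and 1 (6.25%) lower, beside 4.3% and 2.78% of all named genes. Lyz2, lysozyme, stood at 267 FPKM in the basal and 865 FPKM in the KCl library (3.25-fold, 3.16 to 3.33) and Csf1r, the receptor that microglia need to survive, at 29.7 and 63.6 FPKM, while Cx3cr1 was at 30.9 and 28.2 FPKM and Mrc1 at 1.87 and 0.405 FPKM. Their summed level was 831 FPKM basal and 1598 FPKM with KCl in the knockout, above the 363 and 569 FPKM of wild type, with no marker at 0. Of 29 NF-kB, cytokine and chemokine genes, 9 were at least 2-fold higher and none was 2-fold lower (list median 0.71); the part of immune cells in this was not tested. Ccl2, a monocyte chemokine, stood at 0.630 FPKM in the basal and 14.3 FPKM in the KCl library (22.7-fold, 13.7 to 41.2), Il11 at 0.290 and 4.85 FPKM, Il1b at 0.127 and 2.37 FPKM and Nfkbia, the inhibitor of NF-kB, at 10.7 and 27.6 FPKM. None of 15 measured interferon-stimulated and MHC class I genes was past 2-fold. In the oligodendrocyte list 1 of 16 was 2-fold higher, Ugt8a (6.08 and 13.6 FPKM), and 1 lower, Gpr17 (35.9 and 10.8 FPKM), a receptor of premyelinating cells. The summed level of that list was 460 FPKM basal and 397 FPKM with KCl, against 808 and 873 FPKM in wild type.

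Stress genes were higher in part. Of 22 cytosolic heat shock chaperones 6 were at least 2-fold higher, none was lower and 21 lay above the median of all genes. Hspa1b stood at 0.249 FPKM in the basal and 12.6 FPKM in the KCl library (50.4-fold, 30.9 to 91.9) and its near-identical neighbour Hspa1a at 0.605 and 5.39 FPKM, so reads could be split between them. The small heat shock proteins Hspb8, Cryab and Hspb1 were at 5.73 and 38.1 FPKM, at 3.64 and 15.4 FPKM and at 0.608 and 5.16 FPKM, and the cochaperone Bag3 was at 4.76 and 17.5 FPKM. In the endoplasmic reticulum stress list 4 of 29 were at least 2-fold higher. They were Ppp1r15a (5.01 and 62.3 FPKM, 12.4-fold, 11.1 to 14.02), which restores translation after stress and holds a cAMP response element, the chaperone Hspa5 (94.2 and 305 FPKM), Atf4 (119 and 299.6 FPKM) and Dnajb9 (19.2 and 45.5 FPKM). Of 20 p53 targets 2 were past 2-fold, Pmaip1 (4.11 and 10.1 FPKM) and Cdkn1a.

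Raising KCl also changes the medium, and 8 genes of osmolyte transport and synthesis were looked at after their values were seen. Of these 4 were at least 2-fold higher. Slc5a3, the myo-inositol transporter, stood at 5.32 FPKM in the basal and 46.9 FPKM in the KCl library (8.82-fold, 8.33 to 9.36), and Slc38a2, an amino acid transporter, at 75.4 and 280.2 FPKM (3.72-fold, 3.64 to 3.80). Nfat5, the factor that responds to tonicity, was at 8.45 and 21.7 FPKM, and Slc6a12, the betaine transporter, at 0.140 and 3.56 FPKM (25.5-fold, 12.8 to 60.1). Whether the KCl solution was balanced for osmolarity is not given in the sources used here, and the part of osmolarity in these values was not tested.

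Housekeeping groups shifted little and lay mostly above the median of all genes. Of 50 measured cytosolic ribosomal protein genes 1, Rpl5 (12.2 and 30.8 FPKM), was at least 2-fold higher, but 48 lay above the median of all genes, with a list median of 0.43; 10 of the 60 genes listed were below the floor or absent from the table. Of 56 mitochondrial oxidative phosphorylation subunits none was past 2-fold and 47 lay above the median of all genes (list median 0.19). Proteasome subunits (31, median 0.15) and ribosome biogenesis genes (29, median 0.27) held no call either. Of 31 genes of glucose use, lactate transport and hypoxia 3 were at least 2-fold higher, namely Slc16a3, a lactate exporter (2.56 and 9.09 FPKM), Adm (0.416 and 2.81 FPKM) and the glucose transporter Slc2a1 (8.09 and 19.0 FPKM). The cholesterol synthesis list held 1 call among 29, Cyp51 (77.5 and 166 FPKM).

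Chromatin and cell cycle genes were mostly within 2-fold, as were named genes in general, of which 4.3% were higher and 2.78% lower. Among 27 BAF subunits none was 2-fold higher and 2 were 2-fold lower, Bcl11b (9.86 and 2.25 FPKM), which is also a marker of deep-layer neurons, and Smarcd1 (35.7 and 16.8 FPKM). The paralogous ATPase Smarca2 was at 62.4 and 38.4 FPKM and the neuronal subunit Actl6b, the source of the Cre driver, at 30.9 and 32.9 FPKM. Of 36 other chromatin regulators 1, the histone demethylase Kdm6a, was 2-fold higher (7.67 and 16.3 FPKM), and none of 14 histone genes was past 2-fold. In the cell cycle list 2 of 34 were 2-fold higher, Ccnd2 (39.6 and 103 FPKM) and Ccnd1 (20.5 and 43.6 FPKM), and 32 lay above the median of all genes. Among transcription elongation factors Ell2 (4.48 and 16.1 FPKM) and Aff1 (2.50 and 6.36 FPKM) were 2-fold higher of 19. Clock genes held 3 of 19 higher, Nfil3 (16.7 and 46.4 FPKM), Arntl (9.46 and 23.8 FPKM) and Clock (9.35 and 19.7 FPKM), and 1 lower, Dbp (6.97 and 1.83 FPKM), which Nfil3 opposes at shared DNA sites. None of 10 measured sonic hedgehog genes was past 2-fold. Among 17 regulators of G protein signalling, Rgs16 and Rgs5 were 2-fold higher (list median 0.03), and among 12 measured reference genes no member was past 2-fold (median 0.18).

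Among the 52 lists, the 2 of interneuron genes had the largest shares of lower calls, beside 2.78% of all named genes. Of 17 interneuron transcription factors 5 (29.4%) passed 2-fold downwards and no member upwards, as did 5 (27.8%) of 18 genes of GABA synthesis, transport and interneuron identity (medians -0.34 and -0.60). Lhx6, which specifies interneurons from the medial ganglionic eminence, stood at 16.7 FPKM in the basal and 2.19 FPKM in the KCl library, 7.62-fold (6.53 to 8.98) lower with KCl. Slc32a1, the vesicular GABA transporter, stood at 12.9 FPKM in the basal and 2.22 FPKM in the KCl library, 5.81-fold (4.87 to 6.99) lower. The GABA-synthesizing enzymes Gad1 and Gad2 were at 23.4 and 5.35 FPKM (4.37-fold lower, 3.94 to 4.86) and at 6.61 and 1.08 FPKM (6.14-fold lower, 5.16 to 7.401). The factor Maf was at 20.4 and 6.16 FPKM and Dlx1 at 8.75 and 2.38 FPKM, and the peptide Sst was lower as given above. Not every interneuron gene followed: Prox1 was at 1.49 and 3.50 FPKM (log2 ratio 0.85). The summed level of the effector list was 369 FPKM basal and 242 FPKM with KCl in the knockout, and 421 and 265 FPKM in wild type; that of the transcription factors was 238 and 175 FPKM, against 256 and 213 FPKM. Lhx8 was listed at 0 in the knockout KCl library. Fewer interneurons and less of these transcripts per interneuron cannot be told apart here.

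Some excitatory neuron markers were lower as well. Of 19 measured, 4 passed 2-fold downwards, no member did so upwards and 16 lay below the median of all genes (list median -0.53). Tbr1, a factor of deep-layer projection neurons, stood at 29.4 FPKM in the basal and 10.4 FPKM in the KCl library (2.83-fold lower, 2.63 to 3.05). Bhlhe22 was at 202 and 69.1 FPKM (2.92-fold lower, 2.83 to 3.01), Neurod1 at 14.2 and 3.65 FPKM and Bcl11b at 9.86 and 2.25 FPKM. The vesicular glutamate transporters stayed within 2-fold, with Slc17a7 at 37.7 and 25.9 FPKM and Slc17a6 at 11.5 and 8.88 FPKM. The summed level of the list went from 1044 FPKM in the basal to 683 FPKM in the KCl library in the knockout and from 1010 to 870 FPKM in wild type.

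Synaptic adhesion molecules held most of the lower calls among the synaptic lists. Of 32 such genes 7 passed 2-fold downwards and no gene did so upwards, a share of 21.9% beside 2.78% of all named genes (list median -0.39). Slitrk1, a transmembrane protein that induces presynaptic differentiation, stood at 17.9 FPKM in the basal and 4.41 FPKM in the KCl library (4.07-fold lower, 3.70 to 4.47), and Slitrk5 and Slitrk3 were at 20.7 and 7.08 FPKM and at 13.8 and 4.99 FPKM. Rtn4r, the Nogo receptor, stood at 19.1 FPKM in the basal and 5.71 FPKM in the KCl library (3.34-fold lower, 2.89 to 3.84). Lrrtm4, Nrxn3 and Cbln2 were at 4.84 and 1.13 FPKM, at 10.2 and 3.29 FPKM and at 5.38 and 1.24 FPKM. By contrast none of 31 presynaptic vesicle and release genes and none of 26 glutamate receptor genes was past 2-fold, although 27 and 22 of them lay below the median of all genes (medians -0.26 and -0.41); with the ribosomal scaling 8 of the glutamate receptor genes passed 2-fold downwards. The vesicle protein Syt1 was at 129 and 108 FPKM and the receptor subunits Grin1 and Gria2 at 30.2 and 21.5 FPKM and at 139 and 115 FPKM. Of 16 GABA receptor subunits 1, Gabrb2, was 2-fold lower (30.2 and 11.9 FPKM). Postsynaptic density genes held 3 higher of 21, which are the immediate early genes Arc and Homer1 with Baiap2, and 1 lower, Dlgap2 (3.14 and 1.04 FPKM).

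Among ion channel genes the potassium family held most of the calls. Of 49 members 8 (16.3%) passed 2-fold downwards, beside 2.78% of all named genes, and no member did so upwards. Of the 49, 43 lay below the median of all genes (list median -0.39). Kcnv1, a silent modifier subunit, stood at 8.28 FPKM in the basal and 1.72 FPKM in the KCl library (4.82-fold lower, 4.10 to 5.72) and Kcng1, another silent subunit, at 6.57 and 1.91 FPKM. Kcnc2, a channel of fast-spiking cells, was at 4.77 and 1.53 FPKM, Kcnk3, a leak channel, at 2.17 and 0.330 FPKM, and Kcna2, a delayed rectifier, at 6.06 and 2.53 FPKM. Voltage-gated calcium and sodium channels had 1 call of 25, the sodium channel subunit Scn2b (5.98 and 2.26 FPKM), which fell short of 2-fold when the libraries were scaled on presynaptic genes.

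Tubulin isotypes went in opposite directions. Tubb3, the tubulin of neurons, stood at 1175 FPKM in the basal and 284 FPKM in the KCl library, 4.14-fold (4.06 to 4.22) lower, and Tubb4 at 187 FPKM in the basal and 53.2 FPKM in the KCl library, 3.52-fold (3.37 to 3.67) lower. Tubb5 was at 1115 and 560.2 FPKM, a log2 ratio of -0.99 just short of 2-fold, and Tuba1a, the most abundant tubulin, at 1504 and 1402 FPKM. Tubb6 and Tuba1c were 2-fold higher, at 9.45 and 38.5 FPKM and at 1.495 and 5.22 FPKM. Summed over 11 tubulin genes, a group chosen after its values were seen, the level was 5386 FPKM basal and 3411 FPKM with KCl in the knockout and 5706 and 3291 FPKM in wild type. Tubb3, Tubb4, Tubb6 and Tuba1c were the only calls among 31 genes of the neuronal cytoskeleton (median -0.05), and the microtubule protein Mtap2 was at 313 and 280.4 FPKM. Axon guidance genes held 1 call in each direction among 44, the netrin receptor Unc5b higher (1.67 and 6.39 FPKM) and the ephrin receptor Epha3 lower (20.3 and 8.99 FPKM). Of 11 protocadherin genes 1 was lower, Pcdh1 (20.3 and 7.73 FPKM).

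The largest negative ratio was that of Nxph2, a neurexin ligand, at 7.95 FPKM in the basal and 0.475 FPKM in the KCl library (16.7-fold lower, 11.4 to 25.1). Several of the lowest genes have a single coding exon. Of the 11 named genes at least 4-fold lower, 5 (45.5%) have this structure, as have 29.7% of those 2- to 4-fold lower, against 6.47% of genes within 2-fold, 9.84% of those 2- to 4-fold higher and 12.05% of those at least 4-fold higher. Examples from both lower classes are Fam123c (18.1 and 2.33 FPKM), Cdc42ep2 (12.2 and 1.93 FPKM), Rab9b (12.1 and 2.04 FPKM), Tspyl3 (11.2 and 2.01 FPKM) and Pnmal2 (78.2 and 19.2 FPKM). Divided by coding exons, the share at least 2-fold lower was 12.3% with 1 exon, 6.4% with 2, 4.84% with 3 to 5, 1.32% with 6 to 10 and 0.883% with more than 10. The share at least 2-fold higher was 6.37%, 9.52%, 5.73%, 3.92% and 3.32% in the same order. In wild type the lower shares were 11.2%, 7.09%, 4.37%, 2.09% and 1.19%. The exon classes were chosen after the values of these genes were seen, coding exons were counted in the longest transcript of GENCODE M21, and 80.1% of the genes retained had a count.

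**Figure D3:**
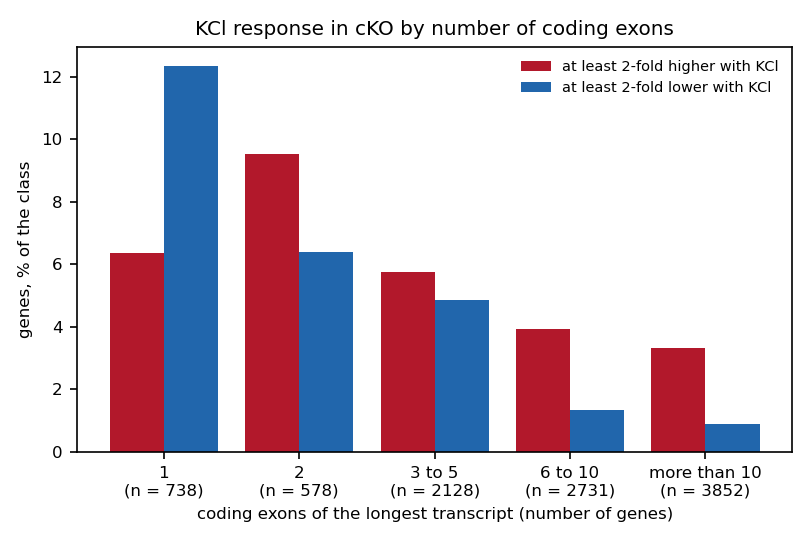
Share of genes (y axis, %) at least 2-fold higher (red) and at least 2-fold lower (blue) with KCl in the knockout, by number of coding exons (x axis, number of genes in brackets); bars come from 1 library per condition and carry no error. The lower share is 12.3% for genes with 1 coding exon and 0.883% for genes with more than 10.

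Zinc finger genes, a group defined by symbol after values were seen, made up many of the lower genes. The group held 336 genes whose symbol begins with Zfp, Zscan or Zkscan and a digit. Of these 49 (14.6%) were at least 2-fold lower and 2 (0.595%) higher, beside 2.78% and 4.3% of all named genes. Their median was -0.51. In wild type 47 were lower and 4 higher (median -0.48). Zfp763 stood at 12.3 FPKM in the basal and 2.85 FPKM in the KCl library (4.31-fold lower, 3.72 to 5.00) and Zfp60 at 23.9 FPKM in the basal and 6.48 FPKM in the KCl library (3.69-fold lower, 3.42 to 3.97). Each of the 2 patterns was present with the genes of the other left out. Among the 264 zinc finger genes with more than 1 coding exon 39 were lower (14.8%), and among the 703 genes with 1 coding exon that are not zinc finger genes 86 were lower (12.2%). The median of zinc finger genes was below that of all genes by 0.51 to 0.57 across the deposited scale and the 5 rescalings. A rescaling shifts all ratios nearly alike, so this range was bound to be narrow.

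The wild-type cultures, measured in their own 2 libraries, gave 672 genes (5.07%) at least 2-fold higher and 439 (3.31%) lower, 1111 (8.39%) in all, with 114 (0.861%) and 20 (0.151%) past 4-fold. The 2 pairs share no library. Among named genes 355 were 2-fold higher in both genotypes, which is 69.1% of the knockout's 514 and 61.8% of the 574 of wild type, and 230 were lower in both, 69.3% of the knockout's 332 and 64.6% of the 356 of wild type. None of the named genes past 2-fold in the knockout was past 2-fold in the opposite direction in wild type, and 511 of the 514 higher and all 332 lower genes had the same sign. Across the 11957 named genes the log2 ratios of the 2 genotypes correlated at 0.91 (Pearson) and 0.89 (Spearman); genes within a library are not independent, and this is a description.

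The knockout log2 ratio was above that of wild type in 6529 (54.6%) of the named genes, and several immediate early and late lists lay on the other side. All 12 AP-1 members had a smaller log2 ratio in the knockout (medians 2.05 and 2.38), as did 7 of 9 Egr, Nr4a and Nab genes and 27 of 33 late intracellular genes (medians 0.56 and 1.18). The late secreted factors did not follow, with 21 of 33 larger in the knockout. Bdnf stood at 0.734 and 27.0 FPKM in wild type (log2 ratio 4.01, against 2.66 in the knockout) and Pcsk1 at 0.933 and 49.3 FPKM (4.70 against 3.601). Nr4a2 was at 5.36 and 145 FPKM in wild type (4.52 against 3.33) and Nfil3 at 17.7 and 112 FPKM (2.59 against 1.42). For Fos and Fosb the gap was narrow, with wild-type levels of 2.40 and 203.4 FPKM and 0.107 and 104 FPKM. These differences between genotypes were not tested, each rests on 4 libraries with no replicate, and genotype cannot be told apart from sex.

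**Figure D4:**
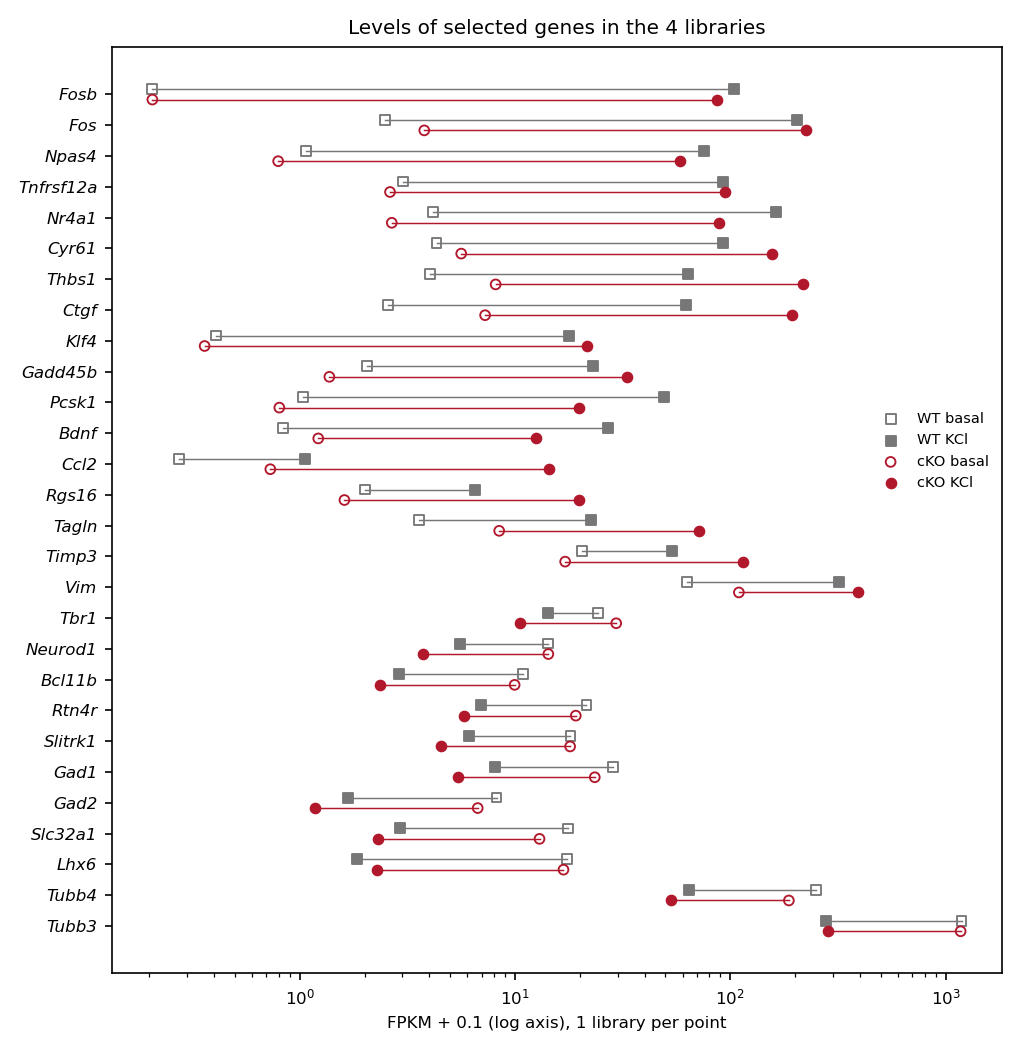
Levels of 28 genes (rows) in each of the 4 libraries (x axis, FPKM + 0.1 on a log axis); squares are wild type, circles the knockout, open symbols basal and filled symbols KCl, with 1 library per point and a line joining the 2 libraries of a genotype. Immediate early genes move right with KCl in both genotypes, Ccl2 and Timp3 end farther right in the knockout, Bdnf and Pcsk1 end farther right in wild type, and Tbr1 to Tubb3 move left.

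Actin, matricellular and vascular genes gave the reverse order. All 24 SRF-linked actin genes had a larger log2 ratio in the knockout (17 at least 2-fold higher there and 10 in wild type), as did all 14 measured vascular markers (9 and 3), 10 of 12 matricellular and 13 of 15 S100 and annexin genes. Thbs1 was at 3.93 and 63.7 FPKM in wild type and at 8.03 and 217 FPKM in the knockout. Ccl2, at 0.174 and 0.960 FPKM, stayed below 1 FPKM in wild type. Timp3 was at 20.4 and 53.6 FPKM in wild type, a log2 ratio of 1.35 against 2.68 in the knockout, S100a6 at 7.96 and 15.99 FPKM (0.92 against 2.41) and Rgs16 at 1.91 and 6.44 FPKM (1.35 against 3.05). The summed vascular and microglia markers given above were higher in the knockout libraries already at basal KCl, and their part in these differences was not tested. In the basal libraries Thbs1, Ctgf and Acta2 were also higher in the knockout, at 8.03, 7.16 and 10.9 FPKM. Their wild-type basal levels were 3.93, 2.46 and 2.58 FPKM. Timp3, S100a6 and Rgs16, in contrast, were at a lower basal level in the knockout than in wild type. The summed basal level of the matricellular list was 485 FPKM in the knockout and 482 FPKM in wild type. That of the actin list was 1282 and 1157 FPKM.

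Neuronal genes that were lower with KCl were lower by more in the knockout in several lists. Of 19 excitatory markers 16 had the lower log2 ratio in the knockout (medians -0.53 and -0.25), and of 32 synaptic adhesion genes 28 did (medians -0.39 and -0.12). Tbr1 went from 24.1 to 14.1 FPKM in wild type, a log2 ratio of -0.73 against -1.42 in the knockout. Interneuron effectors did not share this, with 9 of 18 on each side. Of 17 interneuron transcription factors 7 had the larger log2 ratio in the knockout (medians -0.34 and -0.41). Lhx6 was at 17.3 and 1.74 FPKM in wild type, a log2 ratio of -2.74 against -2.47. Tubb3 gave almost the same values in both genotypes, at 1187 and 278 FPKM in wild type.

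**Figure D5:**
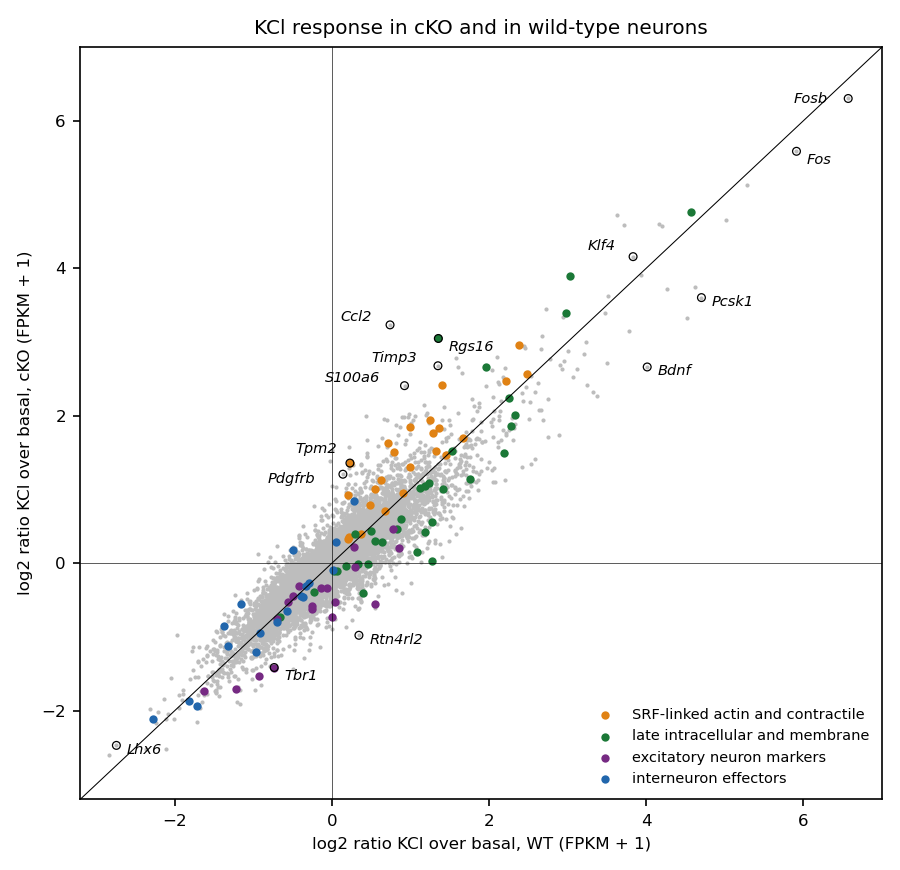
Log2 ratio of KCl over basal (FPKM + 1) in wild type (x axis) and in the knockout (y axis) for 11957 named genes, each point 1 gene from 1 library per group, with members of 4 lists in colour and the diagonal marking equal ratios. Actin and contractile genes (orange) lie above the diagonal, most late intracellular genes (green) and excitatory markers (purple) below it, and interneuron effectors (blue) along it.

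A small set of genes was past 2-fold in the knockout with a wild-type log2 ratio within 0.5 of 0, namely 36 of the 514 higher and 11 of the 332 lower named genes. Over all 11957 named genes, 8255 (69.0%) had a wild-type log2 ratio within 0.5 of 0. The higher set began with Olfml2b, an extracellular matrix protein, at 2.93 and 10.7 FPKM (3.65-fold, 3.11 to 4.28) in the knockout and 2.55 and 3.13 FPKM in wild type. H6pd, an enzyme of the endoplasmic reticulum that makes NADPH, was at 3.69 and 11.8 FPKM and 2.89 and 4.29 FPKM, and Sod3, extracellular superoxide dismutase, at 2.25 and 6.62 FPKM and 0.655 and 1.15 FPKM. Pdgfrb was at 8.40 and 20.7 FPKM and 4.26 and 4.79 FPKM, Tpm2, a tropomyosin, at 1.26 and 4.80 FPKM and 0.599 and 0.874 FPKM, and Tns1, a focal adhesion protein, at 2.03 and 5.95 FPKM and 1.66 and 2.13 FPKM. The lower set began with Tmem74, at 13.8 and 5.09 FPKM in the knockout (2.71-fold lower, 2.42 to 3.04) and 11.3 and 8.61 FPKM in wild type. Nap1l2, a neuronal nucleosome assembly protein, was at 19.1 and 7.89 FPKM and 23.1 and 18.7 FPKM, and Csrnp3 at 30.6 and 12.95 FPKM and 32.2 and 22.6 FPKM. Pou3f1, a POU factor of upper-layer neurons, was at 42.5 and 18.8 FPKM and 39.9 and 35.7 FPKM, Epha3 at 20.3 and 8.99 FPKM and 15.3 and 10.8 FPKM, and Kcna2 at 6.06 and 2.53 FPKM and 5.95 and 4.73 FPKM. The selection itself requires the 2 genotypes to differ, so the difference is a description.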

How the data were processed

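Gene expression was measured by RNA-seq in 4 libraries of primary mouse cortical neurons, 1 for each combination of genotype and KCl condition, assigned to groups from their labels. The authors deposited 1 table with a value per gene and library, whose unit was read from the values as FPKM, since the labels do not name it. Per the submitters' processing notes TopHat 1.3.2 and the mm9 genome were used. Which program computed these values, with which annotation, filters or scaling between libraries, is not given in the sources used here.

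A gene was retained if any library reached 1 FPKM, and log2 ratios were taken after 1 was added to both values. Depth was approximated from the step that 1 fragment makes in the low values, with transcript lengths from GENCODE M21, which gave a length for 98.9% of the retained genes. Intervals of folds are exact binomial at 95%. Motifs were sought on both strands of RefSeq promoters (GRCm38.p6). With 1 library per group no test was made. The procedure was run on simulated data with planted changes. Those data held counting error but no spread between cultures, so the run cannot show how reliable the calls are.

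The 52 gene lists, the members and the rule for naming genes were chosen with earlier results of these data known. The rule took Smarca4, the 6 markers given for the experiment (Fosb, Fos, Thbs1, Ctgf, Tnfrsf12a and Tbr1), the 30 highest and 30 lowest log2 ratios among named genes at 5 FPKM or more, the 15 highest and 15 lowest of those with a wild-type log2 ratio within 0.5 of 0, per list up to 5 members of largest absolute ratio, and the most abundant member of each list. It left out unnamed genes, small RNAs, pseudogenes and genes that mark sex. Some genes the rule named are not reported here. Xist and Eif2s3y, the zinc finger, tubulin, collagen and osmolyte groups, the coding exon classes and list members named beyond the rule were chosen after their values were seen. The alternatives tried were other pseudocounts, filters, scalings and call rules. The software was Python 3.11.15, matplotlib 3.10.9 for plots, SciPy 1.17.1, pandas 2.3.3 and NumPy 2.4.6.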

Additional observations from a re-analysis of the deposited data

Results flagged for a closer look

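Rtn4rl2, a gene of the Nogo receptor family, went in opposite directions in the 2 genotypes. It stood at 29.6 FPKM in the basal and 14.5 FPKM in the KCl library of the knockout (log2 ratio -0.98) and at 31.9 and 40.7 FPKM in wild type (log2 ratio 0.34). The knockout log2 ratio minus that of wild type was -1.32. It was picked out because the 1 library pair of each genotype moved the opposite way by more than 0.25 on the log2 scale, and the signs stayed opposite under all 5 rescalings. The difference was not tested, because each group has 1 library, and genotype cannot be told apart from sex.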

How the results depend on the processing

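The 2 other pseudocounts are smaller than 1, so they can only widen a ratio and cannot change its direction. Under the 5 rescalings none of the genes named by the rule and past 2-fold changed direction. In contrast, equal column sums (470 higher, 567 lower) and the ribosomal scaling turned the balance from more higher to more lower genes, and the regulators of G protein signalling changed side of the all-gene median with the presynaptic scaling. The counts of genes past 2-fold moved by more than 1.5 times with 3 settings. With 0.1 in place of 1 added to both values, 878 genes were higher, 787 lower and 1212 past 2-fold the same way in both genotypes, against 584, 410 and 647 as deposited. Scaling on the ribosomal protein genes gave 295 higher, 1335 lower and 1074 in both, and scaling on presynaptic genes gave 963 higher and 225 lower. The cause was not tested. With a pseudocount of 0.5, no floor, a floor of 5 FPKM, unnamed genes and small RNAs left out, an interval rule for calls and the other 3 scalings, the counts stayed within 1.5 times. Leaving out the floor could not change them, because a gene below 1 FPKM in every library cannot pass 2-fold once 1 is added. Of the 345 genes named by the rule 190 were past 2-fold. The ribosomal scaling took 36 of these calls away and added 41, the presynaptic took 17 and added 26, equal sums took 13 and added 12, equal upper quartiles took 10 and added 5, and median ratios took 1 and added none. Pseudocounts of 0.1 and 0.5, which cannot take a call away, added 26 and 14. No paired analysis was possible because each group has 1 library and the labels give no replicate numbers, and for the same reason no library could be left out. At the approximated depth 1 FPKM on a transcript of 2 kb stood for about 42.6 to 47.1 fragments, so ratios of shorter or lower transcripts rest on fewer.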
